A study of Caenorhabditis elegans with 2 samples.

Results

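The regions described here are the ChIP-seq peaks of the homeodomain protein CEH-63 that lie in the 2 piRNA clusters of chromosome IV of Caenorhabditis elegans. They were chosen by position alone, as the peaks of the pooled list whose summit fell between 4.5 and 7 Mb (left cluster) or between 13.5 and 17.2 Mb (right cluster) of chromosome IV on the ce11 assembly, which has the same sequence as WBcel235. This gave 1518 of 30000 pooled peaks, 709 in the left cluster and 809 in the right one, and they are called cluster peaks below. Only 194 of the 30000 (0.647%) had a q of 0.05 or less. Most entries are thus weak and are not shown to be sites of CEH-63 binding. Chromosome IV held 4980 pooled peaks in all, so that 3462 lay on the rest of the chromosome. The intervals matched their name: 14204 of the 14714 piRNA genes annotated on the chromosome, or 96.5%, had their start inside them.

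The series has 1 group, of 2 biological replicates. The strain was OP742, which carries the insertion wgIs742, with C02F12.10 (ceh-63) fused to TY1, EGFP and 3xFLAG together with unc-119(+), in an unc-119(tm4063) mutant background. The animals were whole larvae of both sexes, held without food at the L1 stage, with an age of 6 hours, so a peak cannot be placed in any tissue. Chromatin was immunoprecipitated with an antibody against GFP, per the description, although the antibody field reads ceh-63. There is no untagged strain or second condition among the samples, so that no test over samples was possible. Counts and shares of peaks are given instead, in the pooled list and in the list of each replicate, with 95% Wilson intervals that cover the counting of peaks only. Neighbouring peaks are not independent, and all lists were called against the same control alignment.

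In C. elegans, piRNAs are the 21U-RNAs, small RNAs that begin with uridine and guide the Argonaute protein PRG-1 in the germ line, where they help to silence foreign and repeated sequences. Each is made from its own short transcript, and the genes that encode them sit in large numbers in AT-rich DNA between and within the genes of chromosome IV. Many carry a short upstream element, the core of which is CTGTTTCA, where a germline complex that includes SNPC-4 and PRDE-1 acts. CEH-63 is known from the DVC interneuron.

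The sequences that bear on the comparison are those of the peaks next to piRNA genes in the authors' thresholded list, which was made with an irreproducible discovery rate (IDR). It held 479 peaks, the highest 479 of the pooled list by signal. Of these, 14 were cluster peaks, and 4 of the 14 had an annotated piRNA start within 1000 bp of the summit. The peaks of rank 175 and rank 378 are shown with 300 bases around their summits, because they had no start of a protein-coding gene within that distance and the most piRNA genes. Capitals mark an annotated piRNA. The first sequence holds 21ur-11549 and the second holds none. The peak of rank 175 had a q of 0.05 or less, while that of rank 378 did not. All sequences are from the RefSeq genome of WBcel235.
Peak of rank 175 (chrIV:5803647-5803946, plus strand): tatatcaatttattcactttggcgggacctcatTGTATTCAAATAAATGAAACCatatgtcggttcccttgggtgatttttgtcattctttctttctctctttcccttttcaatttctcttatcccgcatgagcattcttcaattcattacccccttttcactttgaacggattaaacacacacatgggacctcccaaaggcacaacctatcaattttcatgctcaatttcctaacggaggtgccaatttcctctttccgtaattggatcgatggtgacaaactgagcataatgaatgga
Peak of rank 378 (chrIV:15561198-15561497, plus strand): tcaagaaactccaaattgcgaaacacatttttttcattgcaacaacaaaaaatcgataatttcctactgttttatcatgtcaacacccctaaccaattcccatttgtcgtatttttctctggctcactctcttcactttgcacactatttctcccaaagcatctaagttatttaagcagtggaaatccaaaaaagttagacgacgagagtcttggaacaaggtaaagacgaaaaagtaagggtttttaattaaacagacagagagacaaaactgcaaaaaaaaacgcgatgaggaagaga

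For each of the 4 peaks, the nearest piRNA gene is shown with the 60 bases before it, read on its own strand. Capitals mark the piRNA and, where it was found, the core motif CTGTTTCA. Each of the 4 begins with T, the base that becomes the 5′ uridine, as did 13668 of the 14204 piRNAs in the clusters (96.2%). Only the exact letters CTGTTTCA were counted. They were present before 21ur-7423 and not in the other windows, while 34.8% of all cluster piRNAs had them in their 60 bases. The windows of 21ur-7825 and 21ur-5640 hold ccgtttca and ctgtttcg, which each differ from the motif by a single letter. Such near matches were not counted in other windows, so these have no background here.
21ur-11549 (chrIV:5803620-5803700, plus strand): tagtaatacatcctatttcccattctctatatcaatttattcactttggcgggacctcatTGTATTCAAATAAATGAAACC
21ur-7825 (chrIV:14032387-14032467, minus strand): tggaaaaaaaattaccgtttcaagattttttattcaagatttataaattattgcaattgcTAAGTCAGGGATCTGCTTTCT
21ur-5640 (chrIV:16387844-16387924, minus strand): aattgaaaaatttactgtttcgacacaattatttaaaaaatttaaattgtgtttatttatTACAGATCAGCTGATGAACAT
21ur-7423 (chrIV:15561657-15561737, minus strand): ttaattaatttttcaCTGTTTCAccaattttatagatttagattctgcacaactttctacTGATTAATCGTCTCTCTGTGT

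A weaker peak, of rank 833, is shown as an example with piRNA genes and the motif together, and was chosen for holding them. It lay in an intron of glf-1, the UDP-galactopyranose mutase gene, outside the IDR list, with rank 5298 in replicate 1 and 1562 in replicate 2. Its 201 bases had a GC content of 29.4% and held the piRNA genes 21ur-8828 and 21ur-15611 and 1 copy of the motif on the minus strand, all in capitals.
Peak of rank 833 (chrIV:5888135-5888335, plus strand): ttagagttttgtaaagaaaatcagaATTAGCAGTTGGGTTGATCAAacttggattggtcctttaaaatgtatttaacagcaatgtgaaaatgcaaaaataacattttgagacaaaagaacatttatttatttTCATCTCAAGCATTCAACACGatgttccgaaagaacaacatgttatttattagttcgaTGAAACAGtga

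The clusters held fewer peaks per length than the rest of the chromosome. Density was 245 peaks per Mb in the clusters and 307 per Mb on the rest of chromosome IV in the pooled list, a ratio of 0.799. It was 225 and 310 per Mb in replicate 1 (ratio 0.726) and 277 and 303 per Mb in replicate 2 (ratio 0.913). All 3 lists thus had the lower density in the clusters, by amounts that differed between the replicates. The left cluster, with 284 peaks per Mb, was closer to the rest of the chromosome than the right cluster, with 219 per Mb, which holds 11388 of the piRNA genes against 2816 in the left. The right cluster was at 0.713 of the rest in the pooled list, 0.624 in replicate 1 and 0.867 in replicate 2, and the left cluster at 0.925, 0.877 and 0.982 in the same lists. Outside the clusters, density was 317 per Mb before the left cluster, 302 per Mb between the clusters and 255 per Mb in the 0.294 Mb after the right one. The clusters also differed from the rest in what else they hold. They had 152 protein-coding genes per Mb against 207 per Mb, a GC content of 33.0% against 35.5%, and 88.4% against 90.2% of bases that begin a 31-base word found once in the genome. Per Mb of such words the ratio of densities was 0.815.

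**Figure D1:**
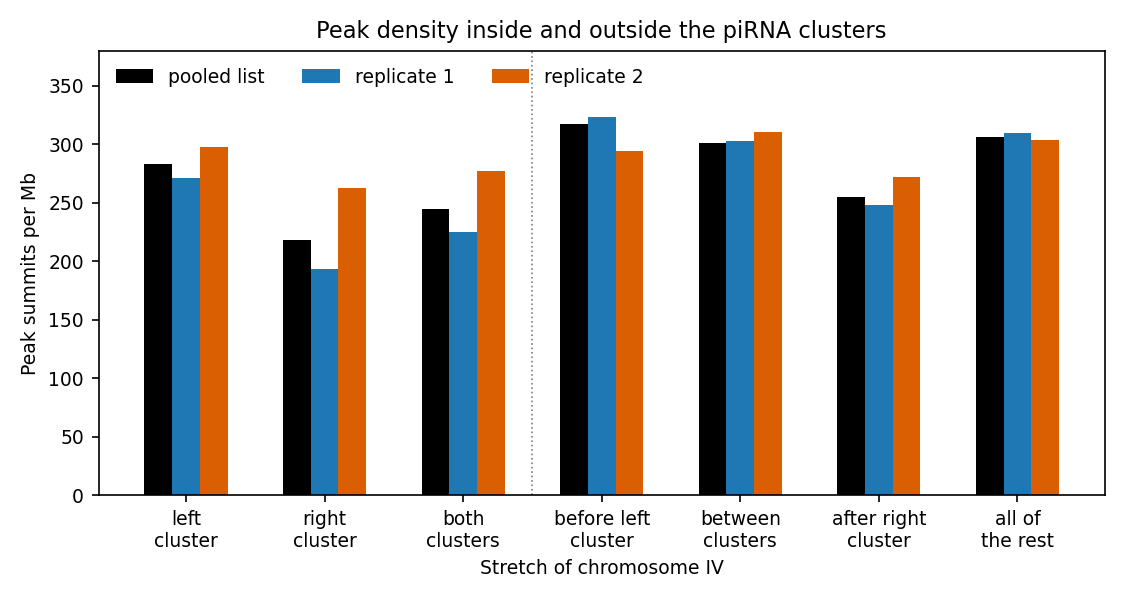
Peak summits per Mb (vertical axis) in stretches of chromosome IV (horizontal axis), with bars for the pooled list and each replicate list. The right cluster was the lowest of the stretches in the pooled list (219 per Mb) and in both replicates, and replicate 2 exceeded replicate 1 in both clusters (277 and 225 per Mb together).

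Within the clusters, summits fell near piRNA starts less often than bases do. A piRNA start lay within 200 bp of 563 of the 1518 cluster peaks (37.1%, interval 34.7 to 39.5), while 45.4% of the bases of the clusters lie that close to one. In replicate 1 the share was 30.8% (430 peaks, interval 28.5 to 33.3), and in replicate 2 it was 43.8% (752 peaks, interval 41.4 to 46.1). The pooled list and replicate 1 were therefore below the share of bases, and the interval of replicate 2 reached it. As densities, the DNA near piRNA starts held 200 summits per Mb and the DNA elsewhere in the clusters 282 per Mb in the pooled list. These densities were 153 and 285 per Mb in replicate 1 and 267 and 285 per Mb in replicate 2. The replicates thus had the same density away from piRNA starts and differed near them. In each cluster by itself the density near piRNA starts was the lower one: 235 against 304 per Mb in the left cluster and 188 against 258 per Mb in the right.

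Around the starts, no rise in the number of summits was seen. In bins of 100 bp within 1000 bp of the 14204 piRNA starts, the pooled list had between 168 and 251 summits per Mb of flank (median 222), and the lowest bin was the one 200 to 100 bp upstream. Replicate 1 had between 105 and 205 per Mb, with its lowest value in the 100 bp just upstream, the stretch that holds the motif where a gene has it. Replicate 2 had between 251 and 318 per Mb, and the same 100 bp held 261 per Mb. Around the protein-coding starts of the clusters, the pooled list had between 159 and 361 per Mb. Replicate 1 had between 128 and 361 and replicate 2 between 213 and 393 per Mb there, and the 3 lists had their highest values in different bins. A summit is counted once for every start it lies near, and piRNA genes overlap one another, so that neighbouring bins share summits.

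**Figure D2:**
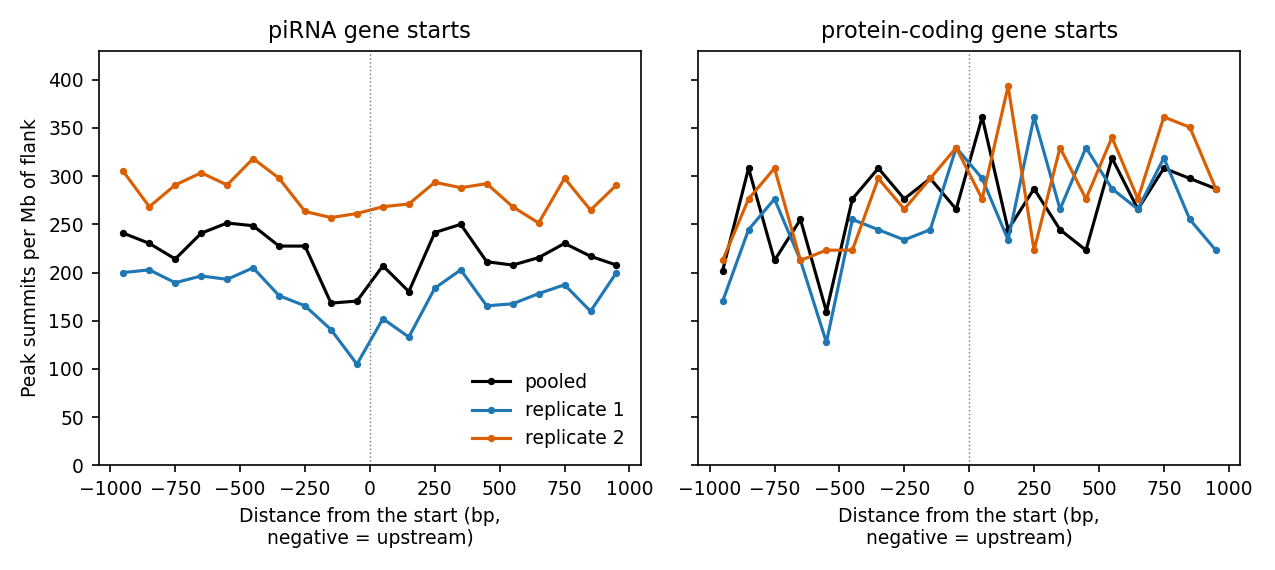
Peak summits per Mb of flank (vertical axis) against the distance from the start in bp (horizontal axis, negative is upstream) in bins of 100 bp, for the piRNA genes (left) and protein-coding genes (right) of the clusters; lines are the pooled list and each replicate. Around piRNA starts the pooled values stayed between 168 and 251 per Mb and replicate 1 reached its lowest value, 105 per Mb, just upstream of the start, whereas replicate 2 stayed between 251 and 318 per Mb.

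Base composition moved with these densities. Taken over 201 bases, GC was below 30% at 61.3% of the bases near piRNA starts, at 24.4% of the bases elsewhere in the clusters and at 22.9% of those on the rest of the chromosome. Peak density rose with GC in each of these places. In the pooled list, the DNA near piRNA starts held 134 summits per Mb where GC was below 30%, 272 where it was 30 to 40% and 530 where it was 40% or more. Elsewhere in the clusters the 3 values were 109, 286 and 425 per Mb, and on the rest of chromosome IV they were 141, 293 and 487 per Mb. Per Mb of all bases at like GC, density near piRNA starts was thus higher than elsewhere in the clusters in the lowest and the highest class and lower in the middle class. In replicate 1 the values near piRNA starts were 83.5, 218 and 566 per Mb, against 79.8, 270 and 486 elsewhere in the clusters. In replicate 2 they were 204, 359 and 430 per Mb near piRNA starts, against 152, 293 and 387 elsewhere in the clusters. Per Mb of all bases, replicate 2 had the higher density near piRNA starts in each class, and replicate 1 in the lowest and the highest. The share of bases that begin a unique 31-base word differed too, at 97.2% near piRNA starts, 81.1% elsewhere in the clusters and 90.2% on the rest of chromosome IV. Per Mb of such words, the pooled densities near piRNA starts were 137, 282 and 583 from the lowest GC class to the highest, against 140, 338 and 544 elsewhere in the clusters, so the lowest class no longer favoured the DNA near piRNA starts. Over all GC classes, they were 206 per Mb of unique words near piRNA starts and 348 per Mb elsewhere in the clusters. Replicate 1 had 85.1, 226 and 623 per Mb of unique words near piRNA starts, against 103, 319 and 623 elsewhere in the clusters. Replicate 2 had 207, 372 and 473 near piRNA starts, against 196, 346 and 495 elsewhere. By this measure replicate 1 favoured the DNA near piRNA starts in no class, and replicate 2 in the lowest and the middle class.

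The same was done in bins of 5 points of GC, by giving each cluster base the density that bases of like GC have on the rest of chromosome IV. The 1518 cluster peaks then compared with 1620 at those densities, a ratio of 0.937, where the plain ratio was 0.799. The ratio was 1.02 for the left cluster and 0.876 for the right. Near piRNA starts it was 1.01 in the pooled list, 0.866 in replicate 1 and 1.21 in replicate 2, and elsewhere in the clusters it was 0.897, 0.890 and 0.927 in the same lists. For both clusters together, replicate 1 gave 0.883 and replicate 2 gave 1.03. The replicates fell on either side of 1 once GC was taken into account, both for the clusters and for the DNA near piRNA starts. These ratios took account of GC only, per base, and not of the share of unique words. That share was 97.2% near piRNA starts, 81.1% elsewhere in the clusters and 90.2% on the rest of chromosome IV. Per Mb of unique words, the rest held 153, 322 and 561 pooled summits in the 3 GC classes, from lowest to highest. Near piRNA starts the values were 137, 282 and 583, below the rest in the lower 2 classes. Elsewhere in the clusters they were 140, 338 and 544, above the rest in the middle class only. In those lower 2 classes near piRNA starts, replicate 1 was also below the rest. Replicate 2 was above it there, with 207 and 372 against 192 and 333. The ratios themselves were not recomputed per Mb of unique words. The summits of the replicates differed in GC on the whole chromosome: the median over cluster peaks was 37.8% in replicate 1 and 34.3% in replicate 2, and over the peaks of the rest it was 39.3% in replicate 1 and 36.8% in replicate 2. Why the replicates differ in this was not tested.

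**Figure D3:**
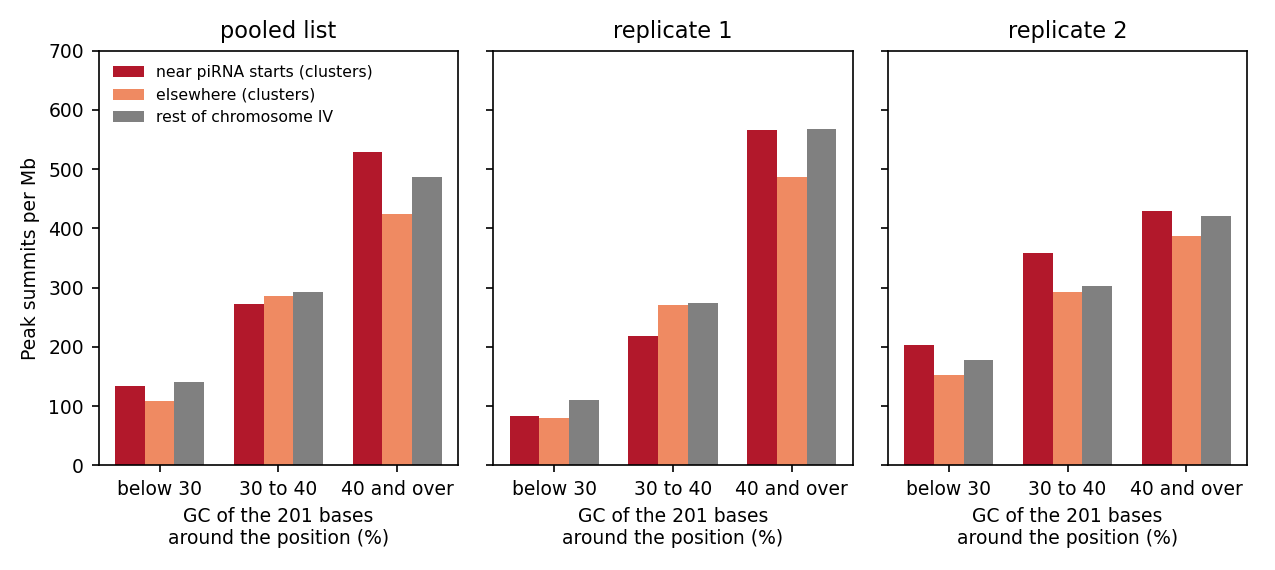
Peak summits per Mb (vertical axis) by the GC content of the 201 bases around a position (horizontal axis, %), for DNA within 200 bp of a piRNA start, for the other DNA of the clusters and for the rest of chromosome IV; panels are the pooled list and each replicate. Density climbs with GC in all 3 places, in the pooled list from 134 to 530 per Mb near piRNA starts, and replicate 2 has taller bars than replicate 1 in the lowest class (204 and 83.5 per Mb near piRNA starts).

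Over windows of 100 kb, peaks followed the share of unique sequence more than the number of piRNA genes. The 62 windows of the clusters held between 11 and 43 pooled peaks (median 23.5) and between 0 and 486 piRNA genes. Spearman's coefficient of peaks with piRNA genes was −0.32 in the pooled list, −0.45 in replicate 1 and −0.13 in replicate 2. It was 0.58 with the share of unique 31-base words and 0.09 with protein-coding starts in the pooled list. Within the 25 windows of the left cluster the coefficient with piRNA genes was −0.077 and within the 37 windows of the right cluster 0.0065, so that the pooled list showed little relation within either cluster. In the right cluster the replicates had opposite signs, with −0.23 in replicate 1 and 0.16 in replicate 2, and in the left cluster they had −0.019 and −0.066 in the same order. The window with the most piRNA genes, which starts at 16 Mb, held 486 of them with 21 pooled peaks, 18 peaks in replicate 1 and 26 in replicate 2. The window with the most peaks, at the outer edge of the left cluster, held no piRNA gene and 43 pooled peaks. Windows share libraries, depth and base composition, and the coefficients are a description.

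Cluster peaks ranked a little below the other peaks of the chromosome by signal. The median rank (1 is the highest signal of the list) was 15939.5 for cluster peaks and 14772.5 for the rest of chromosome IV in the pooled list. It was 15873.5 and 14827.5 in replicate 1 and 15931.5 and 14797 in replicate 2. Among cluster peaks, those near piRNA starts ranked lower. Their median rank was 17433, against 15056 for the other cluster peaks, in the pooled list, 18243 against 14828 in replicate 1, and 16803 against 15316.5 in replicate 2. Among the highest 1000 pooled peaks were 7 of the peaks near piRNA starts (1.24%, interval 0.604 to 2.54) and 34 of the other cluster peaks (3.56%, interval 2.56 to 4.93). In the pooled list the contrast was large in the right cluster, with median ranks of 18117.5 near piRNA starts and 14530 for the others. It was small in the left cluster, with 16182 and 15781. In the left cluster the medians were 18665 and 15952.5 in replicate 1 and 17523.5 and 15758 in replicate 2. In the right cluster they were 18217 and 14034.5 in replicate 1 and 16743 and 14977 in replicate 2. The small contrast in the left cluster was thus particular to the pooled list. In the pooled list, 0.765% of the peaks near piRNA starts and 5.04% of the others in the right cluster were among the highest 1000. In the left cluster these shares were 2.34% and 2.42%. In replicate 1 they were 2.13% and 3.16% in the left cluster and 1.04% and 4.69% in the right. In replicate 2 they were 1.46% and 3.71% in the left cluster and 0.549% and 3.51% in the right. Among cluster peaks with no protein-coding start within 1000 bp, the pooled median ranks were 17256 near piRNA starts and 14759 for the others. With such a start they were 18220.5 and 15513.5 in the pooled list and 18810 and 15391.5 in replicate 1. Replicate 2 had the reverse there, with 14676 near piRNA starts (169 peaks) and 15805 for the others (450 peaks). By class of GC in the pooled list, median ranks near piRNA starts were 18946, 17431 and 10886 from the lowest class to the highest. Those of the other cluster peaks were 17761.5, 15634 and 13438.5. The peaks near piRNA starts ranked lower in the 2 lower classes, which hold 231 and 258 of the 563. In the highest class the lists differed, with median ranks of 14946 near piRNA starts and 13431 for the others in replicate 1, and 12093 near piRNA starts and 14917.5 for the others in replicate 2. At the edges of the clusters, the outermost peaks inside had ranks 12700 and 13506 in the left cluster and 10127 and 25007 in the right. The nearest peaks outside those 4 bounds ranked 5797, 22631, 13782 and 3095.

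**Figure D4:**
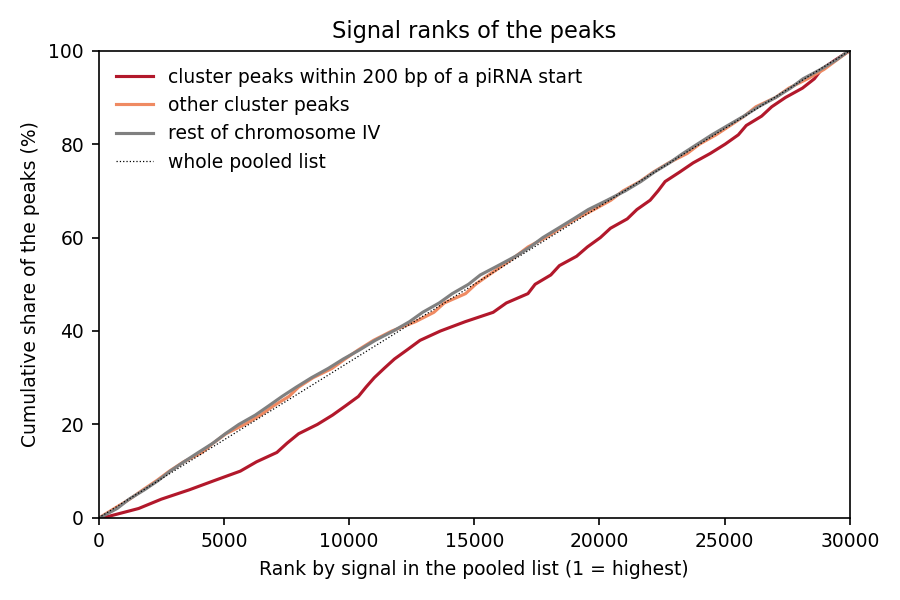
Cumulative share of peaks (vertical axis, %) up to a rank by signal in the pooled list (horizontal axis, 1 is the highest), for cluster peaks within 200 bp of a piRNA start, the other cluster peaks and the rest of chromosome IV; the dotted diagonal is the whole list. The curve of the peaks near piRNA starts lies below the others through most of the list (median rank 17433), while the other cluster peaks (median 15056) lie close to the rest of the chromosome (14772.5).

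The IDR list took 14 of the 1518 cluster peaks, or 0.922% (interval 0.550 to 1.54). On the rest of chromosome IV it took 44 of 3462 peaks, or 1.27% (interval 0.948 to 1.70), and over all chromosomes it took 1.6% of the 30000 pooled peaks. The intervals of the clusters and of the rest overlap. At a q of 0.05 or less the order turned round, with 8 cluster peaks (0.527%) and 14 peaks of the rest (0.404%), beside 0.647% of the whole list. Peaks near piRNA starts were fewer in the IDR list: 1 of 563 (0.178%, interval 0.0314 to 0.999) and 13 of the 955 other cluster peaks (1.36%, interval 0.797 to 2.32). These intervals overlap at their ends. The right cluster had 0 of 392 near piRNA starts (interval 0 to 0.970%) and 9 of 417 others (2.16%, interval 1.14 to 4.05), while the left cluster had 1 of 171 (0.585%) and 4 of 538 (0.743%), which are close. In the replicate lists, the peaks of rank 479 or higher were 1 of 430 near piRNA starts and 16 of 964 elsewhere in replicate 1, and 2 of 752 and 14 of 966 in replicate 2. The left cluster by itself had 1 of 141 near piRNA starts and 8 of 538 others in replicate 1. In replicate 2 it had 1 of 206 and 7 of 539. The right cluster had 0 of 289 and 8 of 426 in replicate 1 and 1 of 546 and 7 of 427 in replicate 2. IDR membership was set by signal, so these counts repeat the ranks above at 1 threshold. Where GC was below 30%, no pooled peak was in the IDR list: 0 of 231 near piRNA starts, 0 of 90 elsewhere in the clusters and 0 of 365 on the rest of chromosome IV.

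Most of the 14 cluster peaks of the IDR list lay at the starts of protein-coding genes and far from piRNA genes. Their median pooled rank was 148.5, against 304.5 for the 44 on the rest of the chromosome. Of the 14, 9 had a protein-coding start within 1000 bp, as did 608 of all 1518 cluster peaks (40.1%). A piRNA start lay within 1000 bp of 4 of the 14 and of 65.2% of all cluster peaks, and the median distance to the nearest one was 10630 bp for the 14 and 339.5 bp for all cluster peaks. The highest, at chrIV:4749883-4750252, had rank 21 in the pooled list, 24 in replicate 1 and 15 in replicate 2. It was intergenic, 172 bp upstream of Y17G9B.5 and 290 bp upstream of the divergent gene rpl-20, which encodes a protein of the large ribosomal subunit. The second, at chrIV:14033818-14034187, had rank 30 in the pooled list, 23 in replicate 1 and 49 in replicate 2. Its summit lay 5 bp before the start of the microRNA gene cel-mir-52, a member of the mir-51 family, in an exon of an overlapping non-coding gene. The third, at chrIV:6323678-6324047, had rank 38 in the pooled list, 41 in replicate 1 and 32 in replicate 2, and was 311 bp upstream of sqd-1, an RNA-binding protein gene named after Drosophila squid. These 3 peaks stood within the first 50 of every list.

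The other peaks without a piRNA gene nearby also lay at or in protein-coding genes. At chrIV:4660388-4660757, between F29B9.11 and the histone demethylase gene jmjd-1.2 (372 and 418 bp away), the ranks were 67 in the pooled list, 64 in replicate 1 and 72 in replicate 2. At chrIV:17087445-17087814, between the sorting nexin gene snx-13 and snr-1, which encodes a core protein of the spliceosomal snRNPs, they were 95, 65 and 172 in the same order of lists. The peak 57 bp upstream of Y73B6BL.29, at chrIV:6321687-6322056, had ranks 122, 189 and 121. The peak 14 bp upstream of ccar-1, at chrIV:14071349-14071718, had ranks 196, 121 and 630. Replicate 2 thus placed the ccar-1 peak outside its highest 479. The peak in a coding exon of hrpu-1, the hnRNP U homologue, 186 bp downstream of its start at chrIV:15040072-15040441, had ranks 413, 599 and 852 and lay outside the highest 479 of both replicates. Peaks in introns of Y65A5A.2 (chrIV:16415630-16415999) and Y73F8A.32 (chrIV:15520568-15520937) had ranks 101, 446 and 80 for the first gene and 261, 665 and 276 for the second.

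The 4 peaks with a piRNA start within 1000 bp shared that neighbourhood with other genes in 3 cases. Their −log10 q was 1.43 at rank 175, 0.746 at rank 293, 0.658 at rank 312 and 0.546 at rank 378. Of these 4, only the peak of rank 175 had a q of 0.05 or less, although all are in the IDR list. The peak of rank 175, at chrIV:5803612-5803981, lay in an intron of lntl-1, with 188 in replicate 1 and 170 in replicate 2 as its ranks. It was 117 bp downstream of the start of 21ur-11549, had 8 piRNA starts within 1000 bp, and had the non-coding gene C31H1.96 at 705 bp. It was the single IDR peak of the clusters within 200 bp of a piRNA start and the single one whose interval overlaps a piRNA gene. The peak of rank 293, at chrIV:14033038-14033407, had 21ur-7825 at 816 bp, whereas the non-coding genes WBGene00201963 and WBGene00196813 were at 52 and 139 bp and cel-mir-52 at 785 bp. It adjoins the stronger cel-mir-52 peak, and its ranks were 313 in replicate 1 and 248 in replicate 2. The peak of rank 312, at chrIV:16388098-16388467, had 21ur-5640 at 419 bp, the non-coding gene Y7A9D.65 at 13 bp, the tRNA gene Y7A9D.t1 at 173 bp and another tRNA gene, Y7A9D.t2, at 999 bp. Its ranks were 857 in replicate 1 and 290 in replicate 2. In these last 2 peaks the piRNA was farther away than genes of other types.

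The fourth, of rank 378 at chrIV:15561163-15561532, was the one with piRNA genes alone within 1000 bp. It had 11 of them, the nearest 21ur-7423 at 329 bp, and lay in an intron of Y105C5A.1, the start of which was 3079 bp away. Its ranks were 127 in replicate 2 and 14710 in replicate 1, so that replicate 1 had a peak there, 67 bp away, with a signal near the middle of its list. None of the 4 summits had the exact letters CTGTTTCA within 100 bp.

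**Figure D5:**
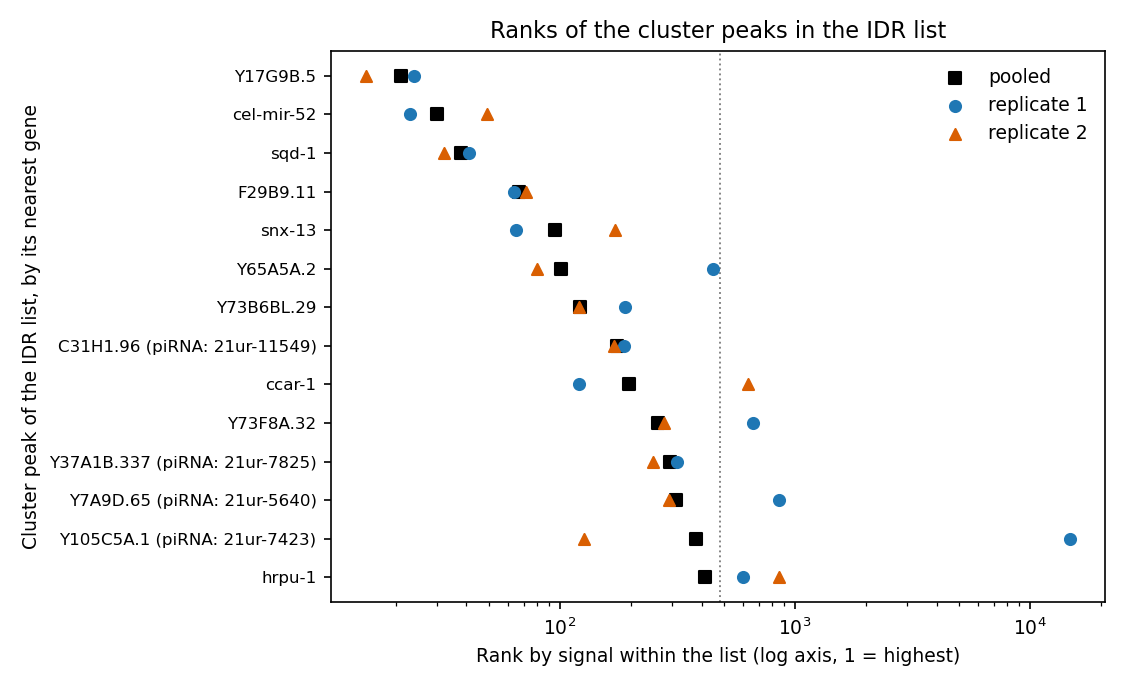
Rank by signal (horizontal log axis, 1 is the highest) of the 14 cluster peaks of the IDR list in the pooled list (squares), replicate 1 (circles) and replicate 2 (triangles), one row per peak named by its nearest gene that is no piRNA, with the nearest piRNA added where its start is within 1000 bp; the dotted line is rank 479. Of the 14 peaks, 9 lie within the highest 479 of both replicates, 4 of 1 replicate and 1 of neither, and the Y105C5A.1 peak stands apart at rank 14710 in replicate 1.

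By type of gene, piRNA genes had a smaller share with an IDR peak than protein-coding, ncRNA-class, tRNA and microRNA genes, while the small snoRNA, snRNA, lincRNA and antisense classes had none. Of the 14204 piRNA genes of the clusters, 21 (0.148%) had a start within 1000 bp of an IDR peak, from those 4 peaks. The count was 12 of 941 protein-coding genes (1.28%), 13 of 321 genes of the ncRNA class (4.05%), 2 of 41 tRNA genes, 1 of 19 microRNA genes, 0 of 18 snoRNA genes, 0 of 16 snRNA genes, 0 of 9 lincRNA genes and 0 of 6 antisense genes. Many of these genes share a peak, so the counts are not independent. Both tRNA genes were at the peak of rank 312 (interval 1.35 to 16.1%). The microRNA gene was cel-mir-52 (interval 0.935 to 24.6%), so these 2 classes hardly bear on the order. A pooled peak of any rank lay within 1000 bp of 37.1% of the piRNA genes and 47.5% of the protein-coding genes. After the peak of rank 175, the highest peaks within 200 bp of a piRNA start were outside the IDR list. They had rank 598 in an intron of the chemoreceptor-family gene str-173 (62 bp from 21ur-6750), rank 731 between genes (175 bp from 21ur-5002), rank 795 in an intron of Y57G11C.31 (41 bp from 21ur-6691), the rank 833 shown above, and rank 921 between genes (195 bp from 21ur-12264), where the nearest other start was that of the JNK kinase gene jnk-1 at 717 bp. The peak at 21ur-5002 had rank 14981 in replicate 1 and 634 in replicate 2, and the peak at 21ur-6691 had rank 7634 in replicate 1 and 311 in replicate 2. At str-173 the order was the other way, with rank 645 in replicate 1 and 1895 in replicate 2.

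The letters CTGTTTCA on either strand were found within 100 bp of 163 of the 563 summits near piRNA starts (29.0%, interval 25.4 to 32.8) and of 30 of the 955 other cluster peaks (3.14%, interval 2.21 to 4.45). They were at 51 of the 3462 peaks of the rest (1.47%) and at 0 of the 14 IDR peaks of the clusters, where the interval reaches 21.5%. Among all consecutive windows of 201 bases, 14.7% of those in the clusters and 1.55% of those on the rest of the chromosome hold these letters. Cluster peaks as a whole had them in 12.7% (interval 11.1 to 14.5), near the share of the windows. The element lies just upstream of piRNA genes, so the higher share at summits near piRNA starts was built into the grouping. Windows near piRNA starts alone were not counted, so the 29.0% has no background of its own here. A match is a description of the sequence, not a site of binding.

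Summits near piRNA starts also differed in setting from the others. They were intergenic in 48.8%, in introns in 32.3% and in coding exons in 16.9%, while the other cluster peaks were intergenic in 32.1%, in introns in 26.5% and in coding exons in 35.1%. A protein-coding start lay within 1000 bp of 27.7% of the peaks near piRNA starts and 47.3% of the other cluster peaks. The median GC around the summit was 31.3% near piRNA starts and 38.8% for the others. Of the 14204 piRNA genes of the clusters, 5280 have their start inside a protein-coding gene.

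Recurrence between replicates was close in cluster peaks and in the other peaks of the chromosome, and lower near piRNA starts. A summit lay within 200 bp in both replicate lists for 628 of the 1518 cluster peaks (41.4%, interval 38.9 to 43.9), for 1519 of 3462 on the rest of chromosome IV (43.9%, interval 42.2 to 45.5) and for 43% of all pooled peaks. The share was 44.1% in the left cluster and 38.9% in the right. Near piRNA starts it was 34.8% (196 of 563, interval 31.0 to 38.8) and for the other cluster peaks 45.2% (432 of 955, interval 42.1 to 48.4), and these intervals do not overlap. Within the right cluster the shares were 32.4% near piRNA starts (interval 28.0 to 37.2) and 45.1% for the others (interval 40.4 to 49.9), and within the left cluster they were 40.4% (interval 33.3 to 47.8) and 45.4% (interval 41.2 to 49.6), where the intervals overlap. The lists contributed unequally: replicate 1 had a summit within 200 bp of 62.2% of the cluster peaks and 68.8% of the rest, and replicate 2 of 73.1% of the cluster peaks and 70.3% of the rest. All 14 cluster peaks of the IDR list recurred in both, but that list was itself made from these lists, so this is no separate result.

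Genes of the piRNA pathway itself, most of which lie outside the clusters, were too few for a count of IDR peaks to be informative. Of 34 symbols for piRNA transcription, processing and effector genes, 30 matched the annotation, and 18 of these (60%) had a pooled peak within 1000 bp of a start, beside 53.3% of all 19985 protein-coding genes. IDR peaks lay within that distance of 0 of the 30, beside 331 protein-coding genes (1.66%) that did. With 30 genes, a count of 0 cannot be told apart from that share. The highest ranks were 2172 at tofu-2, a gene required for piRNA production, 3360 at znfx-1, a helicase gene of inherited silencing, and 3985 at henn-1, which encodes the methyltransferase of piRNA 3′ ends. No pooled peak lay within 1000 bp of prg-1, prde-1 or snpc-4. The germ granule gene pgl-1, which lies in the clusters, had a peak of rank 13418 at 330 bp, and slfl-4, the other pathway gene there, had none.

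Over the 3 lists, width was fixed by the list at 370 bp in the pooled list, 356 bp in replicate 1 and 380 bp in replicate 2, with 1 pooled peak of 107 bp as the exception. Each list held 30000 peaks. The median −log10 q was 0.0376 in the pooled list, 0.0932 in replicate 1 and 0.0479 in replicate 2. In the pooled list, 194 peaks (0.647%) had a q of 0.05 or less. Most peaks compared here are therefore weak, and their densities, ranks and recurrence are not shown to be those of bound sites. Read depth is unknown.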

How the data were processed

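ChIP-seq of CEH-63::EGFP was analysed from peak lists on ce11. Per the README files that the authors deposited, they made a list from each replicate and a pooled list from both, all with the same control alignment, and an IDR thresholded list from these. Aligner, caller, IDR threshold and depth were not given in the sources used here. The signal deposited for each peak has no stated scale and was used to rank peaks within a list, and the deposited −log10 q-value was used as given. Replicates were biological, per the labels, and their lists were analysed separately.

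Summits were placed with the Ensembl release 115 annotation of WBcel235 (pseudogenes left out), and sequences came from the RefSeq genome of WBcel235. A gene was assigned to a peak with a summit within 1000 bp of a start of it, and a peak was near a piRNA gene within 200 bp. Python 3.11.15, pandas 2.3.3, numpy 2.4.6, scipy 1.17.1 and matplotlib 3.10.9 were used, and the counting functions were tested on simulated data. With 1 group, no test was run. Named genes were the nearest piRNA gene and up to 4 nearest other genes within 1000 bp of each IDR peak of the clusters, the genes at the strongest peaks near piRNA starts, cel-mir-52 beside the rank 293 peak and Y7A9D.t2 (these added after their values were seen), and pathway genes, of which tofu-3, pics-1, prg-2 and rde-3 did not match the annotation. The regions, lists and comparisons were chosen with earlier results of these data known. The alternatives were other distances, thresholds, stretches and single replicate lists, and those by unique sequence, GC, single cluster and replicate windows were added after seeing the data.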

Additional observations from a re-analysis of the deposited data

How the results depend on the processing

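Of 34 alternatives, 20 left the value within its spread and kept its direction, 11 moved it and 3 reversed it. Some moves follow from the setting itself. The share near a piRNA start at another distance, recurrence within 100 bp and the share in the highest 1000 peaks can each move in 1 direction only. The count of labels is therefore no measure of robustness. The spread was the Wilson interval for shares and the SD of the 2 replicate values for the density ratio (0.132), median rank (41.0) and window coefficient (0.226). For these 3 results, the alternatives that leave out a replicate are the same values that gave the SD. Their labels are therefore not independent of it. Leaving out a replicate means using the list of the other one. This gave density ratios of 0.726 to 0.913, median ranks of cluster peaks of 15873.5 to 15931.5, shares of cluster peaks near a piRNA start of 30.8 to 43.8% and window coefficients of −0.45 to −0.13. The share of cluster peaks in the IDR list, lower than on the rest of chromosome IV, reversed at a q of 0.05 or less (0.527% and 0.404%) and for the stronger part of the IDR list, split at its median (0.593% and 0.549%). It was 2.70% for the highest 1000 peaks, against 3.12% on the rest. GC standardisation moved the density ratio to 0.937. The share near a piRNA start was 22.9% within 100 bp and 57.3% within 500 bp, against 29.8% and 61.9% of bases. The IDR share near piRNA starts was 0% within 100 bp, where it is 0.178% within 200 bp, and 1.24% for the highest 1000 peaks, against 3.56% of the other cluster peaks. Recurrence within 100 bp was 32.8%, against 34.2% on the rest. The window coefficient was −0.077 in the left cluster and 0.0065 in the right. The cause of these changes was not tested. No paired analysis was possible because the series has 1 group. The unknown depth limits what a missing peak means: it was not detectable in these lists.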
